A study of Mus musculus with 18 samples.

Results

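The response of mouse primary chondrocytes to interleukin-6 (IL-6) at low oxygen was measured by sequencing of total RNA depleted of ribosomal RNA, as 3 libraries of cells given IL-6 at 100 ng/ml for 12 h in 1% oxygen against 3 libraries of cells left without it for the same 12 h in 1% oxygen. These 6 libraries of the 18 in the series were chosen by their labels. The cells came from cartilage of wild type mice, grew in medium with serum at 1% oxygen (hypoxia) and were kept without serum during the 12 h, treated or not. Further libraries of the series used here as context are 12 h IL-6, 12 h untreated and 0 h untreated cells at 21% oxygen (normoxia), and 0 h untreated cells at 1% oxygen, with 3 libraries each, and all 18 entered the fits unless stated. The sample labels name IL-6 as the treatment, while the protocol text also mentions IL-6R, the receptor, so whether soluble receptor was added is not settled by the labels.

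IL-6 is a cytokine that binds its receptor and the shared signalling chain gp130, through which JAK kinases activate the transcription factor STAT3. Target genes of that pathway include its own inhibitor SOCS3 and many acute phase proteins and protease inhibitors. Chondrocytes live in cartilage without blood vessels, where oxygen is low, and there the hypoxia-inducible factors shape gene expression. IL-6 is found raised in joints with osteoarthritis, the disease that the series title names.

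Reads were counted per UCSC transcript identifier, and neither the deposited table nor the gene tables used here pair those identifiers with genes. Findings are therefore given for identifiers, no gene is named, and no sequence or chondrocyte marker could be looked up. Several identifiers can belong to 1 gene, and only 2 identifiers that rose and 2 that fell are printed by name, so others are described by their rank, level or number. At least 32.3% of uniquely aligned reads in each of the 6 libraries were assigned to 1 identifier, and 40.6% to 47.7% were set aside as ambiguous because they overlapped more than 1. Levels in CPM (each identifier's share of a library's assigned counts, scaled to a fixed total by the TMM method) are thus those of the part of a transcript that no other identifier covers, and they are not corrected for length.

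Assigned counts were 10241162, 6764138 and 7125659 in the IL-6 libraries of replicates 1, 2 and 3, against 4618615, 6377596 and 3587239 in the untreated libraries. The treated libraries were deeper in all 3 same-numbered pairs, most so in pairs 1 and 3. Both libraries of a number were sequenced in the same lane, lane 3 for replicate 1, lane 6 for replicate 2 and lane 8 for replicate 3. Replicate 3 stood apart in both groups: its 10 most counted identifiers took 21.2% of assigned counts with IL-6 and 21.7% untreated, against 14.5% to 15.4% in the other 4 libraries. Deviations from the group mean were shared within pairs, with correlations across identifiers of 0.35, 0.57 and 0.63 for replicates 1, 2 and 3, so same-numbered libraries were also compared as pairs.

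IL-6 raised 52 identifiers and lowered 4 in 1% oxygen, by edgeR's quasi-likelihood test over 13432 identifiers at an adjusted p under 0.05. The 56 are 0.417% of those tested, the raised ones 0.387% and the lowered ones 0.0298%. Of the 52 that rose, 11 rose at least 8-fold, 21 at least 4-fold and 48 at least 2-fold, with a median log2 fold change of 1.80 against -0.01 over all identifiers tested. Each of the 4 that fell did so at least 2-fold, and 2 did so at least 4-fold. In such bulk samples a change in the cells' makeup and a change in RNA per cell cannot be told apart.

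When the pairs were taken into account, by a replicate block within each oxygen condition, 729 identifiers were called (5.43%), among them all 56. Of these, 503 rose (3.74%) and 226 fell (1.68%), so the share of lower calls was larger than without the block. Most changes called with the block were small: 350 of the 503 rose by less than 2-fold and 156 of the 226 fell by less than 2-fold. The median log2 fold change of the block's calls was 0.67 for those that rose and -0.75 for those that fell. At least 4-fold changes numbered 31 upward and 9 downward. A block fit on the 6 compared libraries alone called 1035 of 11385 identifiers (9.09%), 606 higher and 429 lower, and held 94.4% of the 729, which were 66.5% of the 1035. Both fits compare the same 6 libraries, so their overlap is not independent support. The fit on 6 libraries has 2 residual degrees of freedom, against 8 for the block within oxygen.

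The number of calls varied with the libraries used. Without the block it was 21 when IL-6 replicate 1 was left out, 25 without untreated replicate 1 and 28 without untreated replicate 2. With IL-6 replicate 2, IL-6 replicate 3 or untreated replicate 3 left out it was 56, 46 and 42. It was 36 with hypoxia replicate 3 left out of every hypoxia group, 4 with only the 6 compared libraries in the fit, and 126 with DESeq2. Reads outside annotated features were a smaller share with IL-6 in every pair, with differences of -4.34, -0.73 and -3.72 percentage points in pairs 1, 2 and 3. Non-unique alignments per assigned read were also fewer with IL-6 in every pair, at 2.34, 3.08 and 0.764 with IL-6 against 3.89, 3.45 and 1.48 untreated, and their part in the calls was not tested. With the share of reads outside annotated features added to the block fit as a covariate, 399 of 13432 identifiers were called, 258 higher and 141 lower. These held 54 of the 56, but both sets come from the same libraries, so that overlap is not independent support.

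**Figure D1:**
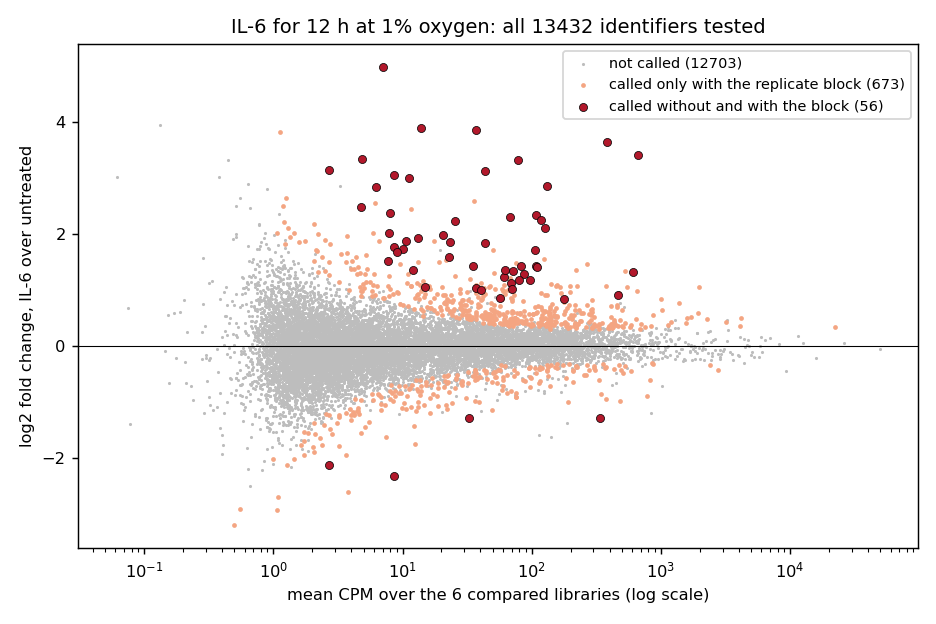
Log2 fold change of IL-6 over untreated cells at 1% oxygen against the mean CPM over the 6 compared libraries (log scale), 1 point per identifier. The 56 called without the block are large dark points, 52 of them above 0, and the 673 called only with the replicate block are small light points on both sides of 0, a few of them as far from it as the dark ones.

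Among raised identifiers eligible for naming, uc008yjp.1 rose most and was close to undetected without IL-6. It had 21.4, 7.96 and 11.9 CPM in IL-6 replicates 1, 2 and 3, from 227, 48 and 87 counts, against 0.820, 0 and 0.533 CPM in untreated cells, from 4, 0 and 2 counts. Every treated library was above every untreated one, and the 0 in untreated replicate 2 allows up to 0.470 CPM (3 counts, before TMM scaling, counting error only). The group means were 13.7 ± 6.90 CPM with IL-6 and 0.451 ± 0.416 CPM without (SD, n = 3 each). The fitted log2 change was 4.98 (SE 0.63, edgeR adjusted p = 0.000847) without the block and 4.98 (SE 0.42, edgeR adjusted p = 8.92e-10) with it, and its size rests on 6 untreated counts in all. It was 4.28 without untreated replicate 2 and 5.91 without untreated replicate 1.

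The second by the rule, uc009ukk.2, rose in all 3 pairs but by very different amounts. It had 49.6, 20.9 and 7.77 CPM in IL-6 replicates 1, 2 and 3, against 1.85, 1.18 and 2.40 CPM in untreated cells. The untreated values rest on 9, 7 and 9 counts. The pair differences in log2 CPM were 4.55, 3.85 and 1.59, a spread of 1.55 (SD) that was among the widest of the raised identifiers, whose median was 0.36. Means were 26.1 ± 21.4 CPM with IL-6 and 1.81 ± 0.607 CPM without (SD, n = 3 each), so the treated libraries differed among themselves nearly as much as their mean. The fit gave a log2 rise of 3.88 (SE 0.53, edgeR adjusted p = 0.00111), 4.57 (edgeR adjusted p = 0.000232) with hypoxia replicate 3 left out and 2.98 (edgeR adjusted p = 0.00510) without IL-6 replicate 1.

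Stronger signals in counts came lower in that ranking. The raised identifier with the highest CPM, the fifth by fold change, had 1532, 1265 and 824 CPM in IL-6 replicates 1, 2 and 3, against 127, 111 and 101 CPM in untreated cells. That is a rise of 3.42 on the log2 scale (SE 0.33, edgeR adjusted p = 2.59e-05). The fourth had 976, 587 and 575 CPM with IL-6, against 74.2, 45.0 and 52.2 CPM without. It rose by 3.64 on the log2 scale (SE 0.33, edgeR adjusted p = 1.25e-05), and its pair differences of 3.71, 3.70 and 3.46 nearly coincided. Neither was chosen by the rule for naming, and both were picked out after their values were seen.

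Together the 52 raised identifiers took 0.899%, 0.580% and 0.595% of assigned counts in IL-6 replicates 1, 2 and 3, against 0.210%, 0.185% and 0.205% in untreated cells. The 503 raised with the block took 12.9%, 9.53% and 14.2% with IL-6, against 8.11%, 6.99% and 10.4% without. The 226 lowered with the block took 2.07%, 2.23% and 1.74%, against 3.22%, 2.97% and 2.69%. These shares describe identifiers chosen for their change in the same libraries, and they are shares of assigned counts, not of the RNA.

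**Figure D2:**
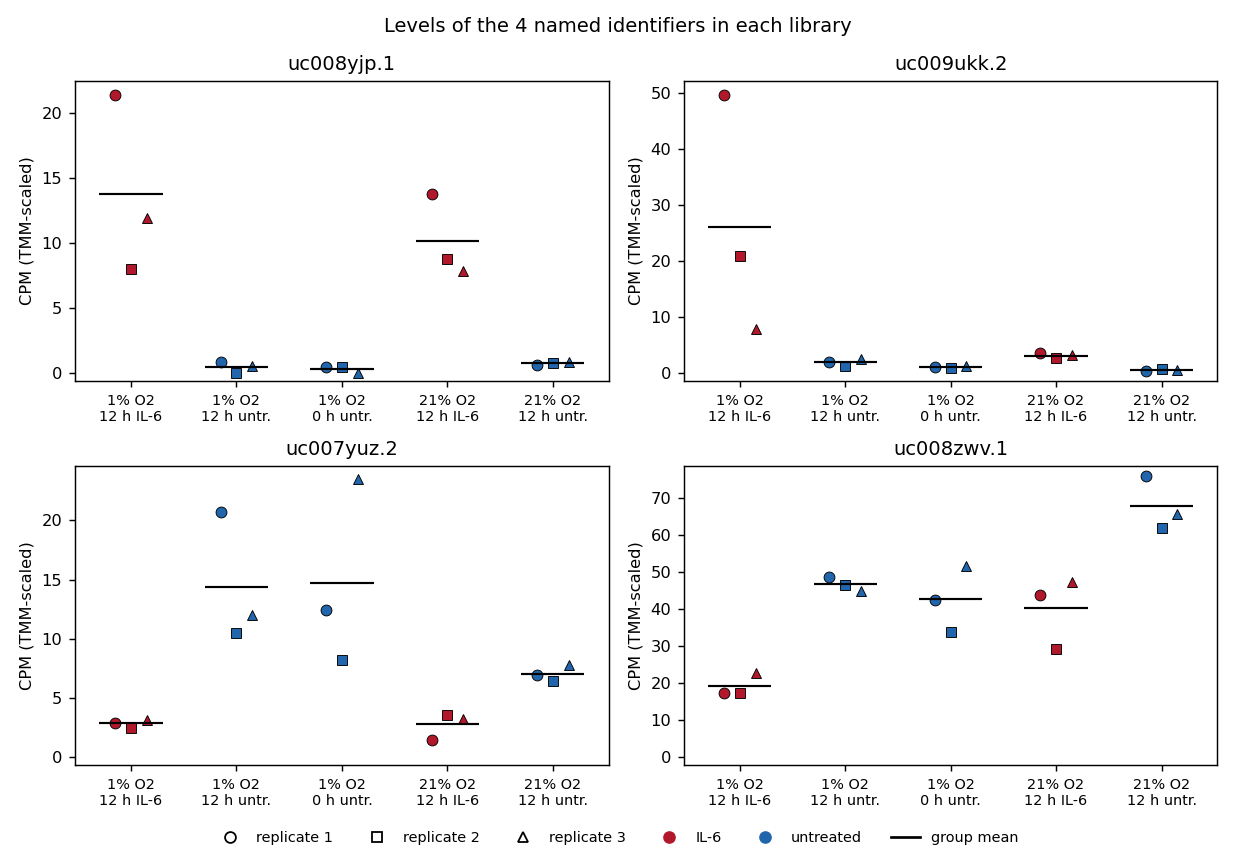
CPM of the 4 named identifiers in each library (points, shaped by replicate) with group means (bars), for 1% oxygen with IL-6, untreated at 12 h and untreated at 0 h, and for 21% oxygen with IL-6 and untreated at 12 h. At 1% oxygen the IL-6 libraries do not overlap the untreated 12 h libraries in any of the 4.

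Of the 4 identifiers that fell, uc007yuz.2 fell most. It had 2.92, 2.49 and 3.14 CPM in IL-6 replicates 1, 2 and 3, against 20.7, 10.5 and 12.0 CPM in untreated cells. The treated libraries lay close together, and the spread was in the untreated ones, where replicate 1 was highest. On the log2 scale the change was -2.33 (SE 0.40, edgeR adjusted p = 0.00845), or -2.37 (SE 0.29, edgeR adjusted p = 1.06e-06) with the block. The call without the block was lost when IL-6 replicate 1, IL-6 replicate 2 or untreated replicate 1 was left out (edgeR adjusted p = 0.0823, 0.0593 and 0.0830). With the block the call held without pair 1, 2 or 3 (edgeR adjusted p = 0.000996, 2.07e-05 and 6.58e-08).

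The other identifier named by the rule, uc008zwv.1, had 17.2, 17.2 and 22.8 CPM in IL-6 replicates 1, 2 and 3, against 48.6, 46.5 and 44.7 CPM in untreated cells. Means were 19.1 ± 3.20 CPM with IL-6 and 46.6 ± 1.93 CPM without (SD, n = 3 each), and the groups were far apart relative to both spreads. The log2 change came to -1.29 (SE 0.25, edgeR adjusted p = 0.0225), or -1.31 (SE 0.18, edgeR adjusted p = 2.97e-05) with the block. Without the block the call was lost when any 1 of the compared libraries other than IL-6 replicate 3 was left out, at edgeR adjusted p from 0.0511 to 0.187. With the block it held without pair 1, 2 or 3 (edgeR adjusted p = 0.00743, 0.00290 and 0.000130).

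The lowered identifier with the highest CPM, picked out after its values were seen, had 137, 187 and 265 CPM in IL-6 replicates 1, 2 and 3, against 415, 495 and 527 CPM in untreated cells. In the fit it changed by -1.28 on the log2 scale (SE 0.26, edgeR adjusted p = 0.0296), and the pair differences of -1.59, -1.40 and -0.99 were smallest in replicate 3. The remaining one averaged 0.995 ± 0.0406 CPM with IL-6 and 4.43 ± 0.673 CPM without (SD, n = 3 each), and its mean over the 6 libraries was below the 5 CPM needed to be named.

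Calls were spread unevenly over abundance. When the identifiers tested were split into quartiles of mean CPM over all 18 libraries, the lowest (0.447 to 2.0 CPM) held 1 of the 56 and the highest (above 37.4 CPM) held 29, that is 0.0298% and 0.864% of the identifiers in each. The second and the third quartile held 6 and 20. With the block, 0.983%, 2.08%, 6.37% and 12.3% were called from the lowest quartile to the highest. The smallest change that was called with the block shrank along the same series, at an absolute log2 fold change of 1.42, 0.83, 0.43 and 0.30. Standard errors of the fit without the block did so too, with medians of 0.60, 0.44, 0.32 and 0.25, and no change under 2-fold was called in the lowest quartile in either fit.

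The balance of directions also changed with abundance. With the block, 15 identifiers rose and 18 fell in the lowest quartile, 42 and 28 in the second, 130 and 84 in the third, and 316 and 96 in the highest. The IL-6 libraries are part of the mean that sets the quartiles. A rise thus lifts that mean and a fall reduces it, which favours rises in high quartiles and falls in low ones. How much of the order comes from this was not tested. Of the 52 raised without the block, 9 had under 10 counts in at least 1 untreated library, and 2 had 0 counts in one. None of the 52 had under 10 counts in an IL-6 library, and 23 had at least 100 counts in all 6 libraries. The filter on low counts can keep an identifier for its level in the IL-6 libraries alone. Nothing is therefore read from the absence of low counts there.

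**Figure D3:**
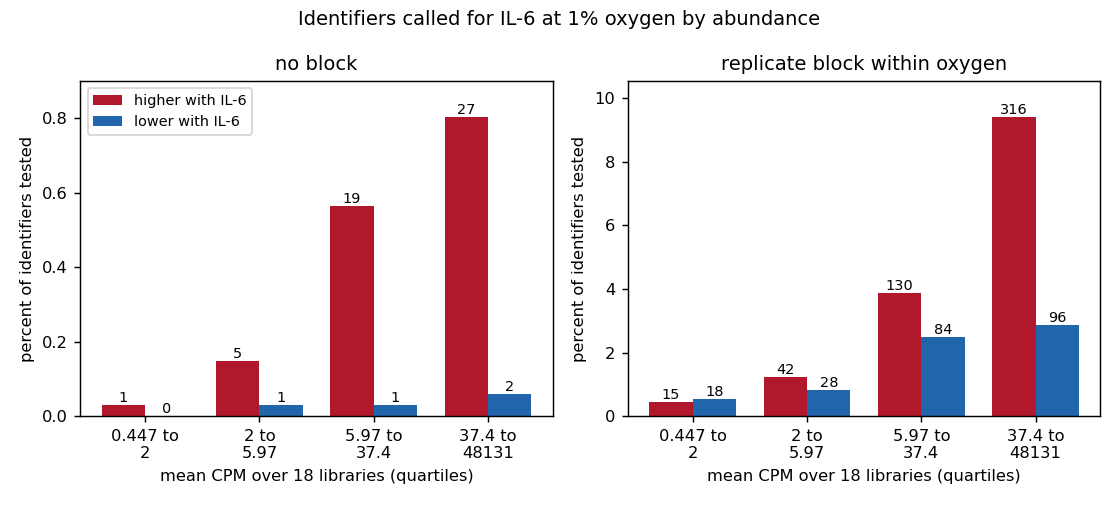
Percent of identifiers tested that were called higher (left bar of each pair) or lower (right bar) with IL-6 at 1% oxygen, by quartile of mean CPM over the 18 libraries, without a block (left panel) and with the replicate block within oxygen (right panel). Numbers above the bars are identifiers, from 1 higher and 0 lower in the lowest quartile without a block to 316 higher and 96 lower in the highest with it.

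All 56 identifiers changed in the same direction in 3 of 3 pairs and had no overlap between treated and untreated libraries, in a comparison where 20.6% of all identifiers tested were higher and 20.8% lower in every pair, and 5.61% were higher and 4.16% lower without overlap. The call itself favours such identifiers, so nothing is read from that count. For 37 of the 52 raised, each single pair reached a 2-fold difference. Of all identifiers tested, 3.72%, 4.16% and 8.72% were at least 2-fold higher in pairs 1, 2 and 3 taken singly. The share reaching it in every pair was not counted. The call favours large differences in these pairs, so nothing is read from the 37 either. The median pair difference of the 52 in log2 CPM was 1.96 in pair 1, 1.71 in pair 2 and 1.58 in pair 3. Pair 1 gave the largest difference for 36 of the 52, and pair 3 the smallest for 27. Pair 1 also had the deepest treated library, and any part of depth in that order was not tested. With every library thinned to 3587239 assigned counts at most, 50 identifiers were called, 46 higher and 4 lower.

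**Figure D4:**
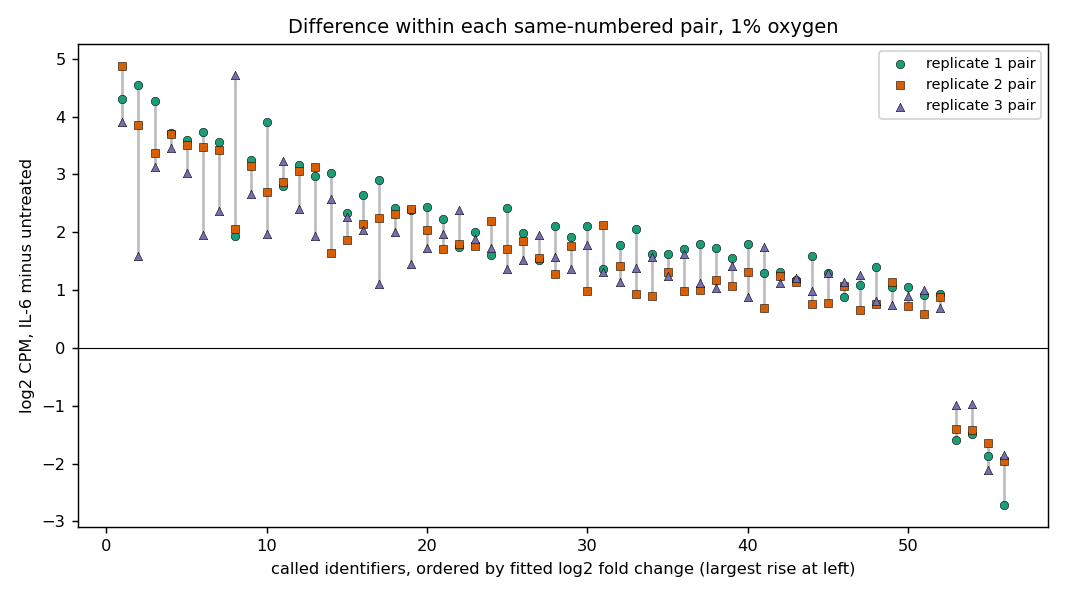
Difference in log2 CPM between the IL-6 and the untreated library of each same-numbered pair at 1% oxygen, for the 56 called identifiers ordered by fitted log2 fold change. Grey lines span the 3 pairs, and all points of the 52 raised identifiers lie above 0 and all points of the 4 lowered ones below it.

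Identifiers were also called with the block after 1 same-numbered pair had been left out of the fit, and were then read in that pair. These fits kept the 13432 identifiers of the fit to all libraries, so the pair left out still took part in the filter on low counts. Without pair 1, 201 were called higher, and 199 of them (99.0%) were higher in pair 1, where 47.4% of all identifiers tested were. All 48 called lower were lower in pair 1, against 52.6% of all. Without pair 3, 338 of 350 called higher (96.6%) were higher in pair 3 and 137 of 155 called lower (88.4%) were lower there, against 50.4% and 49.5% of all.

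Identifiers called without pair 2 showed smaller differences in the pair left out than in the fit. Of these, 479 of 521 called higher (91.9%) were higher in pair 2 and 263 of 304 called lower (86.5%) were lower there, against 51.0% and 49.0% of all. The identifiers called higher had a median log2 difference of 0.41 in pair 2, against a fitted 0.72 in the other 2 pairs, and those called lower -0.25 against -0.87. The same medians in pair 3 were 0.75 against a fitted 0.83 for identifiers called higher and -0.48 against -0.87 for those called lower, so the lower calls were smaller there too. In pair 1 they were 1.03 against 0.94 and -0.997 against -0.93. Pair 2 was the pair in which the share of reads outside annotated features differed least, at -0.73 percentage points, and in which depth was most alike. Their part in the differences read in pair 2 was not tested. The pair differences used a prior count of 2, which pulls them further toward no change than the fitted values. Identifiers were also selected for their change in the fit, which favours smaller differences in a pair left out. The medians read in a pair and in the fit are therefore not like measures.

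The same identifiers were also compared between 12 h and 0 h of untreated cells at 1% oxygen. None of the 56 was called by edgeR without the block, where 0 of all 13432 were (0%), with 625 at an unadjusted p under 0.05. DESeq2 called 2 of all identifiers there, 1 of them among the 56. In edgeR's fit with the block 5 of the 52 raised ones were called (1.89% of all), 1 higher and 4 lower at 12 h. Among the 52, the median log2 change from 0 h was -0.11 at 12 h untreated, with a range of -1.11 to 1.49, against 0.02 over all tested. This comparison shares the untreated 12 h libraries with that of IL-6. The cells were without serum during the 12 h, so passing time and lack of serum cannot be told apart in it. At 0 h, uc008yjp.1 had 0.422, 0.434 and 0 CPM in replicates 1, 2 and 3, and uc009ukk.2 had 0.986, 0.723 and 1.14 CPM. The levels of uc007yuz.2 at 0 h were 12.4, 8.24 and 23.5 CPM, and those of uc008zwv.1 were 42.4, 33.7 and 51.6 CPM. All 4 were thus on the side of the untreated 12 h libraries at 0 h, and did not overlap the IL-6 libraries.

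The 21% oxygen libraries are not in the 1% oxygen contrast, but they shared its filter, scaling and estimate of the spread, and with only the 6 compared libraries in the fit 4 identifiers were called. All 52 identifiers raised at 1% oxygen had a positive log2 fold change at 21% oxygen (50.1% of all tested) and all 4 lowered ones a negative one (49.9% of all). Of the 52, 51 were higher with IL-6 in all 3 pairs at 21% oxygen (18.3% of all tested) and 50 had no overlap (3.81% of all). Without the block 24 of the 52 were called higher there (0.201% of all), and 48 were with the block (2.03% of all). These 24 are 46.2% of those raised at 1% oxygen and 88.9% of those raised at 21% oxygen. The 4 lowered identifiers were lower in all 3 pairs (19.4% of all) without overlap (3.43% of all). None of the 4 was called lower at 21% oxygen without the block, where edgeR called no identifier lower (0%), with 134 lower at an unadjusted p under 0.05 and 6 called lower by DESeq2. With the block 3 of the 4 were called lower (0.938% of all).

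Of the calls made with the block, 39.6% of the raised and 27.9% of the lowered identifiers at 1% oxygen were called in the same direction at 21% oxygen, against 2.03% and 0.938% of all tested, and 1 was called in opposite directions. These shared calls were 73.2% of the raised and 50.0% of the lowered ones at 21% oxygen. The median log2 fold change at 21% oxygen was 1.43 for the 52, from 0.13 to 3.91, against 0.00 over all tested, and -0.97 for the 4. The members were selected for their change at 1% oxygen, so their smaller median at 21% oxygen is not a comparison of the responses.

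The named identifiers differed in how their 21% oxygen values compared. For uc008yjp.1 the libraries held 13.8, 8.74 and 7.83 CPM with IL-6, against 0.616, 0.771 and 0.838 CPM without, from 4, 7 and 8 counts. The log2 change of 3.71 (SE 0.54) passed (edgeR adjusted p = 0.00330). For uc009ukk.2 they held 3.49, 2.53 and 3.05 CPM with IL-6, against 0.308, 0.551 and 0.523 CPM without, from 2, 5 and 5 counts. The log2 change of 2.62 (SE 0.61) missed the threshold without the block (edgeR adjusted p = 0.118) and passed with it (edgeR adjusted p = 0.00126). Its level was lower in every 21% oxygen library than in any 1% oxygen library, both with IL-6 and in untreated cells at 12 h. Log2 fold changes at 21% oxygen were -1.31 for uc007yuz.2 and -0.76 for uc008zwv.1, which passed only with the block (edgeR adjusted p = 0.00670 and 0.00583).

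The test of the difference itself, IL-6 by oxygen, called 0 of the 13432 identifiers without the block by edgeR (0%), with 167 at an unadjusted p under 0.05, and 0 by DESeq2. With the block it called 6 (0.0447%), of which 4 had a higher log2 change at 1% oxygen and 2 a lower one. The log2 difference was above 0 for 41 of the 52 raised (50.9% of all tested) and below 0 for all 4 lowered ones (49.1% of all), a direction that their selection at 1% oxygen favours. Among the 56, 2 were called, and 1 of these was the fourth-ranked riser, with a log2 fold change of 3.63 at 1% oxygen and 2.42 at 21% oxygen in that fit, a difference of 1.21 (edgeR adjusted p = 0.00121). None of the 4 named identifiers was called, with interaction log2 values of 1.27 (SE 0.89) for uc008yjp.1, 1.26 (SE 0.86) for uc009ukk.2, -1.01 (SE 0.56) for uc007yuz.2 and -0.53 (SE 0.34) for uc008zwv.1 without the block.

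**Figure D5:**
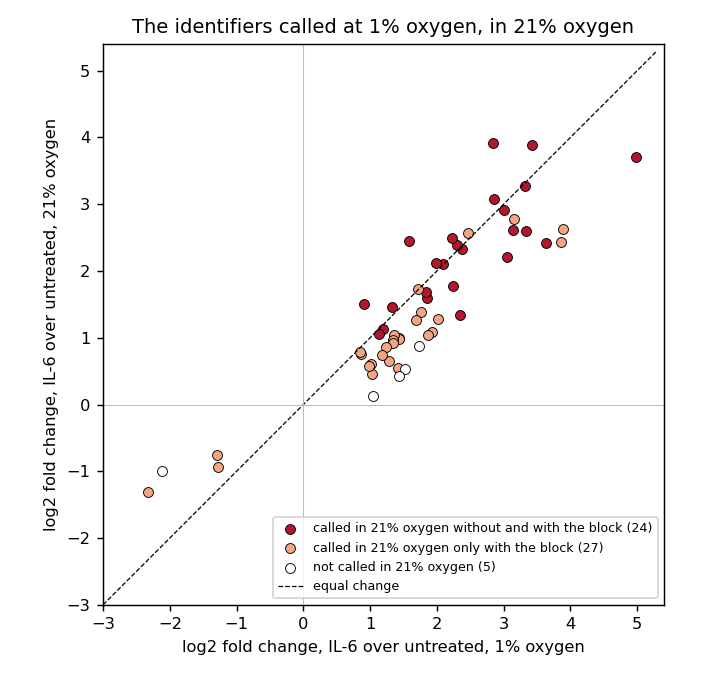
Log2 fold change of IL-6 over untreated cells at 1% oxygen (x axis) and at 21% oxygen (y axis) for the 56 identifiers called at 1% oxygen, coloured by their call at 21% oxygen, with a dashed line of equal change. All 56 have the same sign in both, 24 are called at 21% oxygen without the block, 27 only with it and 5 in neither fit.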

How the data were processed

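The deposited table holds raw read counts per UCSC transcript identifier, not normalized by the authors. Reads were 50 bp and single-end, aligned to mm10 with TopHat2 and counted with HTSeq, with DESeq2 for testing, per the labels' protocols and the submitters' processing notes. For versions, strand and overlap settings, no source used here gives a value. Left out of totals and tests were the 5 HTSeq summary rows. In R 4.3.3, edgeR 4.0.16 filtered identifiers with filterByExpr by group (13432 of 63244 kept, at least 99.5% of each library's counts), scaled them by TMM and fitted a robust quasi-likelihood model to all 18 libraries with 1 coefficient per group. Calls needed an adjusted p (Benjamini-Hochberg) under 0.05. SE is the absolute log2 fold change over the square root of F. Log2 CPM used a prior count of 2.

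Assigned counts were 3088280 to 10241162 per library, and a count of 0 allows 0.293 to 0.836 CPM in the 6 compared libraries. Whether replicates came from separate cultures or animals is not in the labels, so the p-values reflect only how these samples vary, and that may be technical variation. Library pairs within the 2 groups differed beyond sampling noise (chi-square per degree of freedom 16.1 to 92.8), so all counted as separate. Same-numbered libraries deviated together (correlations 0.35, 0.57 and 0.63, other numbers at most 0.22), and the numbers were used as pairs in the fits with a replicate block. The pairing comes from the replicate numbers in the labels and this check, and at 21% oxygen the replicate 2 pair did not share a lane.

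To be named, a called identifier needed at least 5 CPM on average in the 6 libraries, no overlap between groups and 1 direction in all 3 pairs, which 49 raised and 3 lowered identifiers met, and the 2 with the largest change each way are printed. The comparison, rule and tests were chosen with earlier results of these data known. The scripts were tested on simulated data. DESeq2 1.42.0, other normalization, filters, blocks and left-out libraries were alternatives.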

Additional observations from a re-analysis of the deposited data

Results flagged for a closer look

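The share of uniquely aligned reads outside annotated features was lower with IL-6 in 3 of 3 pairs at 1% oxygen, with differences averaging -2.93 ± 1.93 percentage points (SD, n = 3), and higher in 3 of 3 pairs at 21% oxygen, by 1.52 ± 1.27 (SD, n = 3). It drew attention because all pairs of one oxygen condition moved opposite to all pairs of the other, a difference of -4.45 percentage points that was not tested. The ambiguous share (a difference of 2.86) and the assigned share (1.59) went in the opposite direction in each pair, as parts of the same total.

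IL-6 by oxygen called 6 identifiers with the replicate block within oxygen, against 0 without it. All 6 were also called for IL-6 at 1% oxygen in that fit (5.43% of all tested), a count that the test of a difference favours. For 1 of the 6 the log2 change was called in both conditions with opposite signs, 0.35 at 1% oxygen and -0.36 at 21% oxygen. The test called 7 with hypoxia replicate 3 left out.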

How the results depend on the processing

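Counts for IL-6 at 1% oxygen are given as called (higher, lower), against 56 (52, 4) without a replicate block. RLE scaling gave 53 (49, 4) and thinning 50 (46, 4). DESeq2 gave 126 (111, 15), no filter on low counts 113 (96, 17), a test against a 1.5-fold change 20 (19, 1), only the 6 compared libraries 4 (4, 0), and hypoxia replicate 3 left out of all hypoxia groups 36 (34, 2). Leaving out 1 of the 6 libraries gave 21 to 56 called, 21 to 56 higher and 0 to 4 lower. The replicate block across oxygen conditions gave 169 (141, 28), within oxygen 729 (503, 226), and with the 6 libraries alone 1035 (606, 429). With the block within oxygen, leaving out both libraries of replicate 1, 2 or 3 and filtering low counts again gave 249 (202, 47), 819 (530, 289) and 509 (354, 155). Chosen after seeing the data, the block without hypoxia replicate 3 gave 512 (358, 154), with thinning 603 (406, 197), and with a covariate for reads outside annotated features (their share) 399 (258, 141).

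IL-6 by oxygen called 0 without a block, 0 with the block across oxygen conditions, 1 with no filter, 6 with the block within oxygen and 7 with that block and no hypoxia replicate 3. Identifiers raised in both oxygen conditions numbered 24, or 21 with RLE, 55 with DESeq2, 42 with no filter, 70 with the block across oxygen conditions and 199 with it within oxygen. The cause of these shifts was not tested, and some of the fits took in other numbers of libraries or identifiers. All 4 named identifiers kept their sign under the 22 alternatives run for each. The calls of uc008yjp.1 and uc009ukk.2 were lost only with the 6 compared libraries and no block (edgeR adjusted p = 0.118 and 0.184). Their lowest values over the alternatives, edgeR adjusted p = 1.15e-16 and 1.23e-15, came with no filter on low counts. Those of uc007yuz.2 and uc008zwv.1 were lost under 5 and 8 of the 22 (edgeR adjusted p from 6.58e-08 to 0.118 and from 2.54e-06 to 0.306). The value of 0.306 came from the test against a 1.5-fold change. Identifiers under about 2 CPM are limited by depth, as 3 counts are 0.836 CPM in the shallowest compared library.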

Other observations

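Of the 52 identifiers raised at 1% oxygen, 5 stand within 5 rows of another raised one in the order of the deposited table, which gives no coordinates. Whether any of them belong to the same gene was not tested.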
